A study of Mus musculus with 2 samples.

Results

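The genes of the 3 RUNX transcription factors, Runx1, Runx2 and Runx3, their partner subunit gene Cbfb and the corepressor gene Runx1t1 were examined in single-cell ATAC-seq, which counts transposase cuts in the open chromatin of single nuclei. A region belonged to a locus if a peak of either library overlapped the gene body or lay within 100 kb of a transcription start site (TSS) of the gene in GENCODE M21. In all 285 of 275294 merged regions were found, namely 84 at Runx1, 81 at Runx2, 64 at Runx3, 35 at Cbfb and 21 at Runx1t1. Of these, 190 held a peak of both libraries and are called shared, 51 (17.9%) held peaks of DOX alone and 44 (15.4%) held peaks of EtOH alone. Over all merged regions these shares were 17.0% and 19.4%. The 5 genes were selected after ratios of DOX to EtOH accessibility in these libraries had been seen, so these ratios are given as a description and no test was made of them.

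Mammary organoids, which are primary mouse gland fragments grown in matrigel with Neuregulin, Noggin and R-spondin, came from C57BL/6J mice of the genotype shTRPS1.34 ki/+; CAG-rtTA3 tg/+. Both groups thus carried the inducible hairpin against Trps1, a GATA-type repressor, and the transactivator driven by the ubiquitous CAG promoter. The DOX group received doxycycline at 0.1 µg/ml and the EtOH group ethanol as vehicle, both for 7 days, so that the hairpin and doxycycline itself cannot be told apart. Nuclei of several mice were pooled into 1 library per group, so there are no replicates, and all intervals below are 95% intervals that cover counting error only.

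RUNX proteins bind DNA through the Runt domain as a dimer with CBFB, which itself does not contact DNA. RUNX1 is known for blood cell development, RUNX2 for bone and RUNX3 for lymphocytes and sensory neurons, and RUNX1 and RUNX2 are also present in mammary epithelium. Each Runx gene is transcribed from a distal and a proximal promoter that give different amino termini, and the distal promoter of Runx1 is the one typical of blood cells.

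The Runx1 distal and both Runx3 promoters set the immune and epithelial nuclei apart below, while the Runx1 proximal promoter was open in both classes. The windows of these promoters are shown first. They are the 250 bases before the outermost annotated TSS in GRCm38 (mm10), read 5′ to 3′ on the strand of the gene from the RefSeq genome. Capitals mark letters searched on both strands, where overlaps between kinds were allowed. RUNX letters were TGTGGT and its variant TGCGGT. The GATA letters were AGATAA and its variant TGATAA, and the ETS letters were GGAAG. The Runx1 windows lie at chr16:92826150-92826399 (distal, minus strand) and chr16:92697330-92697579 (proximal, minus strand), and the Runx3 windows at chr4:135120395-135120644 (distal, plus strand) and chr4:135152246-135152495 (proximal, plus strand). None overlapped an exon of its own gene, and the Runx3 distal window overlapped an exon of Gm16225.
Runx1 distal: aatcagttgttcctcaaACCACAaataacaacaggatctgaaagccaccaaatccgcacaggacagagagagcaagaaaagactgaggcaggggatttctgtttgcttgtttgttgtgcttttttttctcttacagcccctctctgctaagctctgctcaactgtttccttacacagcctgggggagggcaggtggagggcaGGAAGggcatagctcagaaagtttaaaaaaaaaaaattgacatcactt
Runx1 proximal: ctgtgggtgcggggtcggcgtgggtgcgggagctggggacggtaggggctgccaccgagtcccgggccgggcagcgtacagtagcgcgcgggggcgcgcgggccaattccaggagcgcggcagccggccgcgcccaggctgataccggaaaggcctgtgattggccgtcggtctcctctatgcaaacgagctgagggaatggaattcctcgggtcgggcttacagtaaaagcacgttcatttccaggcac
Runx3 distal: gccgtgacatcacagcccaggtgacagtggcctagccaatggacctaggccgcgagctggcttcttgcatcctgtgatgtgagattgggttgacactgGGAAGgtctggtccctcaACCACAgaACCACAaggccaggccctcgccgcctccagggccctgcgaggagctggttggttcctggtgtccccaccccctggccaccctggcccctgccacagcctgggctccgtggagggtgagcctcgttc
Runx3 proximal: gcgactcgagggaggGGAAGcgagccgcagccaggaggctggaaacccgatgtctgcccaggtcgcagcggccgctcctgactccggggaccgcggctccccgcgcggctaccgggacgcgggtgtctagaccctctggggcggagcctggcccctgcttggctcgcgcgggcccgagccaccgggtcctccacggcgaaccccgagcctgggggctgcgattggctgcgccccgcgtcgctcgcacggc

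RUNX letters stood once in the Runx1 distal and at 2 positions in the Runx3 distal window, and in neither proximal window. Among windows not shown, Runx2 distal and Runx1t1 TSS cluster 4 also held them once, and both promoters were lower in immune than in epithelial nuclei. The Runx2 proximal, Cbfb and Runx1t1 TSS cluster 1 windows held none. Over the first 250 bases of 32851 RefSeq mouse promoters, 18.6% held RUNX letters, 16.6% GATA letters and 64.1% ETS letters. GC content was 44.8% in the Runx1 distal and 67.6% in the Runx1 proximal window. It was 65.2% in the Runx3 distal and 76.0% in the Runx3 proximal window.

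Elements outside promoters with the highest epithelial ratio at Runx2, Runx1 and Runx1t1 are shown next, as the central 300 bases of the region on the strand of the gene, with the same letters in capitals. They are an intronic region of Runx2 (Runx2_r30, chr17:44653122-44653421, minus strand), a region upstream of Runx1 (Runx1_r61, chr16:92847881-92848180, minus strand) and an intronic region of Runx1t1 (Runx1t1_r11, chr4:13822950-13823249, plus strand). None of the 3 windows overlapped an annotated exon.
Runx2_r30: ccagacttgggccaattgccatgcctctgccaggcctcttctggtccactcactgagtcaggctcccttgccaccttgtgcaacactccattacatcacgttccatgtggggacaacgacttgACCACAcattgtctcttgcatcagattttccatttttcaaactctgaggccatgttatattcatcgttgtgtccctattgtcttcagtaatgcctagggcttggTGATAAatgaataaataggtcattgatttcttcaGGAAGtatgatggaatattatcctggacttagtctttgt
Runx1_r61: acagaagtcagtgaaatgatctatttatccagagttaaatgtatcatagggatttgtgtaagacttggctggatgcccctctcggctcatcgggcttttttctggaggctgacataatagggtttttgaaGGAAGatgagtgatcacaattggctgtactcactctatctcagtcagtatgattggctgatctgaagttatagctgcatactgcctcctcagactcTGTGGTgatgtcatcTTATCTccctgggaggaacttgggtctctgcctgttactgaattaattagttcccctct
Runx1t1_r11: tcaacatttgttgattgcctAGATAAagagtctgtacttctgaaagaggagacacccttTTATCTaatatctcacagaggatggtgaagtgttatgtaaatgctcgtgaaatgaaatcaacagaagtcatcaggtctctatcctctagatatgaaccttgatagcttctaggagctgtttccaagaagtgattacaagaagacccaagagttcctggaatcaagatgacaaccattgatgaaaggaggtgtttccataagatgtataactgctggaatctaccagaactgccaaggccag

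Runx2_r30 and Runx1_r61 each held RUNX, GATA and ETS letters, while Runx1t1_r11 held GATA letters at 2 positions and neither of the others. Among the 190 shared regions of the 5 loci, the central 300 bases held RUNX letters in 39.5%, GATA letters in 22.6% and ETS letters in 76.8%. The shares over all 174940 shared regions were 30.9%, 21.1% and 71.2% in this order. RUNX letters stood in 22 of 46 shared regions at Runx3 (47.8%), in 27 of 60 at Runx1 (45.0%) and in 14 of 48 at Runx2 (29.2%).

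The DOX library held 3071 nuclei with 224762118 counts and the EtOH library 3104 nuclei with 211963715 counts, and 23 barcodes occurred in both. Nuclei were clustered on regions outside the 5 loci. Clusters led by epithelial markers held 1742 DOX nuclei (56.7%, interval 54.9 to 58.5) and 2795 EtOH nuclei (90.0%, 88.9 to 91.1), and clusters led by immune markers held 1285 (41.8%) and 287 (9.25%). A shallow cluster of 44 DOX and 22 EtOH nuclei stayed unnamed. The libraries also differed within the epithelium. Cluster 2, in which none of the 3 epithelial marker lists led, held 1387 DOX and 17 EtOH nuclei, and cluster 1, led by luminal progenitor markers, held 54 DOX and 1614 EtOH nuclei. Clusters 4 and 5 were led by hormone-sensing luminal markers and cluster 7 by basal markers. Cluster 7 was counted as epithelial for its basal markers (median log2 fold over the other nuclei 0.78), although the general epithelial list had -0.32 and the 2 detected markers of the fibroblast list, too few to name a cluster, 0.61. Its level of Dcn, a fibroblast marker, was 13.5 CPM against 1.79 CPM in other nuclei. The immune clusters 3 and 6 were open at Csf1r and Tyrobp, whereas the T cell marker Cd3e stood at 2.01 CPM in DOX and 1.70 CPM in EtOH immune nuclei (counts scaled to a total of 1e6 in shared regions). Chromatin at the Trps1 promoter, which does not report on RNA interference, was at 28.6 CPM in DOX and 22.7 CPM in EtOH epithelial nuclei.

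Accessibility is given as CPM throughout, and differences as the log2 ratio of DOX over EtOH. A promoter is the sum of its 1 or 2 shared regions, and levels are not scaled to length. The Cbfb promoter was open in both classes. It was at 40.2 CPM in DOX and 42.8 CPM in EtOH epithelial nuclei, and at 61.4 and 72.1 CPM in immune nuclei. So was the Runx1 proximal promoter, with an interval of 32.6 to 35.5 CPM in DOX and 34.9 to 37.4 CPM in EtOH epithelial nuclei, and with 39.1 and 51.6 CPM in immune nuclei. The Runx2 proximal promoter was at 20.6 and 19.2 CPM in epithelial and at 29.0 and 31.1 CPM in immune nuclei.

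The Runx1 distal promoter stood at 42.1 CPM (40.2 to 44.2) in DOX and 37.4 CPM (33.1 to 42.1) in EtOH immune nuclei, against 2.21 CPM (1.86 to 2.61) and 1.68 CPM (1.43 to 1.96) in epithelial nuclei. The log2 ratio of immune over epithelial level was 4.25 (4.00 to 4.51) in DOX and 4.48 (4.19 to 4.77) in EtOH. In the basal cluster 7 this promoter was at 4.16 CPM in DOX and 1.24 CPM in EtOH, from 23 and 12 counts. Both Runx3 promoters showed the same order of the classes. The log2 ratio of immune over epithelial level was 3.84 and 3.16 at the distal and 3.18 and 3.57 at the proximal promoter, in DOX and EtOH respectively. The opposite order was found at the Runx2 distal promoter, with log2 ratios of -0.66 (-1.01 to -0.32) and -1.48 (-2.42 to -0.68), and at the first Runx1t1 TSS cluster, with -2.97 (-3.72 to -2.30) and -2.60 (-4.49 to -1.23). Among the clusters, the Runx2 distal promoter was highest in cluster 7 of EtOH, at 12.0 CPM (9.09 to 15.5), against 6.87 CPM (4.14 to 10.7) in cluster 7 of DOX (log2 ratio -0.80, -1.63 to -0.03). The hormone-sensing cluster 5 had 7.28 CPM in DOX and 6.40 CPM in EtOH. Of the 4 Runx1t1 TSS clusters, the second and the third held no shared region.

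**Figure D1:**
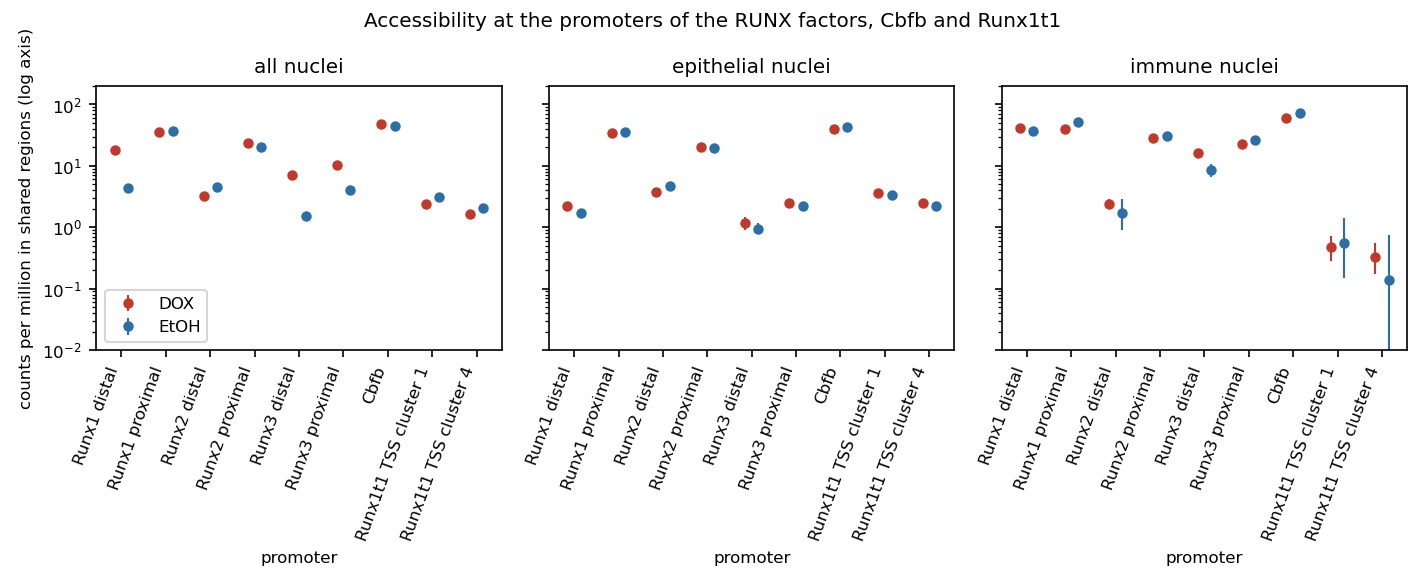
CPM (log axis) at 9 promoters in all, epithelial and immune nuclei of DOX (red) and EtOH (blue), with 95% Poisson intervals for 1 library each. The Runx1 distal promoter lies at 18.0 CPM in DOX and 4.29 CPM in EtOH over all nuclei, but at 42.1 and 37.4 CPM in immune nuclei.

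Counted per nucleus, the Runx1 distal promoter was open in 69.3% of DOX and 61.0% of EtOH immune nuclei, and in 7.52% and 5.22% of epithelial nuclei. The median depth over all nuclei was 75195 counts per nucleus in DOX and 66701 in EtOH. It was 75464 and 53449 in immune nuclei and 75982.5 and 69413 in epithelial nuclei. After each nucleus was thinned to 20000 counts, the shares were 33.6% (30.9 to 36.4) and 32.4% (26.7 to 38.5) in immune nuclei and 1.85% and 1.76% in epithelial nuclei. Thinning left out 83 DOX and 31 EtOH immune nuclei and 232 and 301 epithelial nuclei. For Cbfb, the thinned shares were 46.3% and 52.0% in immune and 34.8% and 35.2% in epithelial nuclei.

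Over all nuclei the libraries differed most at the promoters that were open mainly in immune nuclei. Log2 ratios of 2.07 (1.91 to 2.22) were found at the Runx1 distal, 2.25 at the Runx3 distal and 1.36 (1.19 to 1.52) at the Runx3 proximal promoter. Within epithelial nuclei these ratios were 0.40 (0.06 to 0.74), 0.27 (-0.19 to 0.74) and 0.13 (-0.17 to 0.44), and within immune nuclei 0.17 (-0.01 to 0.36), 0.95 (0.58 to 1.35) and -0.26 (-0.49 to -0.03). Another region at the Runx3 proximal promoter, Runx3_r34, had a peak of DOX alone and entered none of these ratios. The summed level of 12 immune marker genes in epithelial nuclei was 128 CPM in DOX and 126 CPM in EtOH, 9 of the 12 being higher in DOX, and the part of immune counts in the epithelial values was not tested.

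The promoters open in both classes differed less between the libraries over all nuclei, with log2 ratios of 0.11 at Cbfb, -0.05 at Runx1 proximal and 0.25 at Runx2 proximal. Within the classes, Cbfb had a log2 ratio of -0.09 (-0.17 to -0.02) in epithelial and -0.23 (-0.37 to -0.10) in immune nuclei. The Runx1 proximal promoter had -0.09 (-0.17 to -0.01) and -0.40 (-0.56 to -0.23), and its ratio was below 0 in each of the 6 clusters with at least 50 nuclei of both libraries, from -0.10 in cluster 1 to -0.65 in cluster 5. The Runx2 proximal promoter had 0.10 (-0.00 to 0.21) in epithelial and -0.10 (-0.31 to 0.11) in immune nuclei.

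The Runx3 distal promoter was the one whose level in immune nuclei differed most between the libraries among promoters with at least 200 counts in that class, with 16.5 CPM (15.2 to 17.7) in DOX and 8.51 CPM (6.53 to 10.9) in EtOH. It was higher in DOX in both immune clusters. In cluster 6 it stood at 37.6 CPM in DOX and 17.2 CPM in EtOH (log2 ratio 1.13, 0.60 to 1.71), and in cluster 3 at 8.77 and 5.74 CPM (0.61, 0.08 to 1.19). There were 308 DOX and 67 EtOH nuclei in cluster 6, and 977 and 220 in cluster 3. Among epithelial nuclei this promoter was open in the basal cluster 7, at 12.5 CPM (8.67 to 17.4) in DOX and 10.0 CPM (7.39 to 13.3) in EtOH, while the luminal clusters 1, 4 and 5 ranged from 0.310 to 1.34 CPM. The region also lay at a TSS of Gm16225, and the accessibility of the pair cannot be told apart.

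Regions were then called at least 2-fold apart if they held at least 100 counts over both libraries. Over all nuclei, 54 of 190 regions of the 5 loci were higher and 10 lower in DOX, where 13% of all shared regions were higher and 13.4% lower. The rule used this contrast, so nothing is read from the count. Runx3 contributed 21 of its 46 regions, Runx1 20 of 60 and Runx2 13 of 48, while Cbfb had none in either direction among 24 and Runx1t1 had 3 lower among 12. The level summed over the shared Runx3 regions was 320 CPM in DOX and 168 CPM in EtOH (log2 ratio 0.93). Position alone set which regions entered. The outermost shared regions inside the window, on both sides of the 5 genes, had log2 ratios from -2.65 to 1.61 over all nuclei, and the next ones outside from -1.15 to 1.69.

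Between the classes, 58 of 182 regions of the 5 loci were at least 2-fold higher in immune than in epithelial nuclei of both libraries and 73 were at least 2-fold lower. Over all shared regions 15.2% were higher and 49.3% lower. At Runx3 26 of 45 regions were higher in immune nuclei (57.8%), at Runx1 23 of 60 (38.3%), at Runx2 7 of 46 (15.2%) and at Cbfb 2 of 24 (8.33%). At Runx1t1 all 7 tested regions were lower. Of the 54 regions higher in DOX over all nuclei, 52 could be compared between the classes, and 47 of these were at least 2-fold higher in immune nuclei of both libraries. Over all 22701 shared regions higher in DOX, 83.7% of those comparable were. Of the 126 regions that were not 2-fold apart, 123 could be compared, and 11 were, against 6.25% of all such regions.

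**Figure D2:**
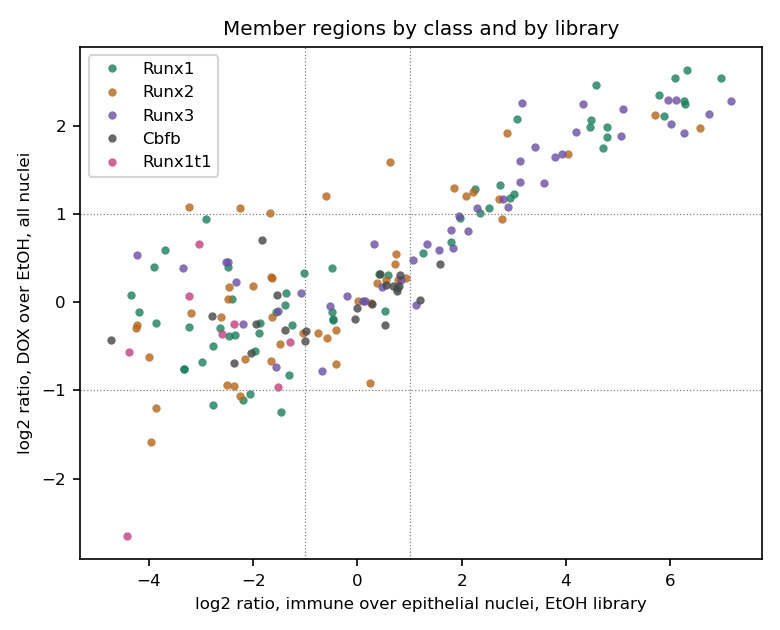
Each point is 1 shared region of a member locus, with the log2 ratio of immune over epithelial level in the EtOH library on the x axis and the log2 ratio of DOX over EtOH over all nuclei on the y axis; dotted lines mark 2-fold. Regions above the upper dotted line lie mostly at the right, and 47 of 52 comparable ones were 2-fold higher in immune nuclei of both libraries, where 83.7% of all shared regions higher in DOX were.

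Within the classes fewer regions differed. In epithelial nuclei, 14 of 177 regions were at least 2-fold higher and 3 lower in DOX, where 5.4% of all shared regions were higher and 8.63% lower. The median log2 ratio was 0.04 over the member regions and -0.06 over all shared regions. In immune nuclei, 4 of 126 regions were higher and 1 lower, where 5.36% and 1.18% of all shared regions were, and the medians were 0.01 and 0.04. Of the 54 regions higher over all nuclei, 9 were 2-fold higher within epithelial and 0 within immune nuclei, where 18.0% and 4.12% of all shared regions higher in DOX were. Without cluster 7, left out after seeing the data, 19 regions were higher and 3 lower in DOX epithelial nuclei, and the Runx3 distal promoter had an epithelial ratio of 0.50. With the median ratio of all regions of the class set to 0, the epithelial calls were 18 higher and 3 lower. The immune calls were then 3 higher and 2 lower. The shares over all shared regions were not computed in this setting or without cluster 7, so nothing is read from these counts.

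**Figure D3:**
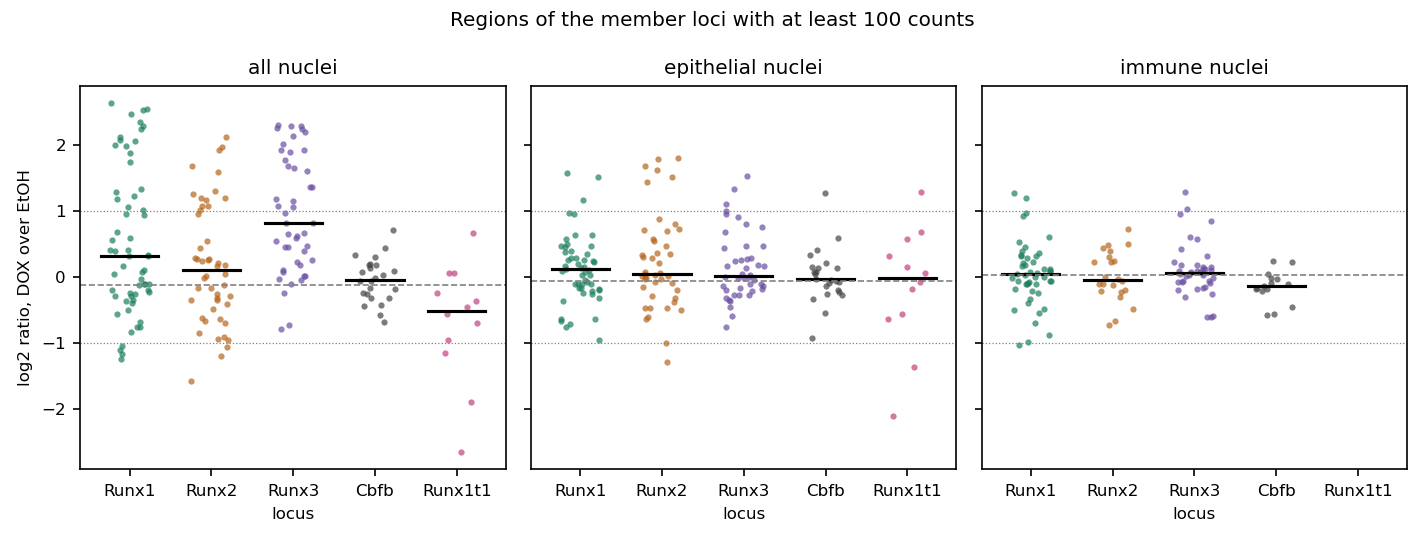
Log2 ratio of DOX over EtOH for each shared region with at least 100 counts, by locus, in all, epithelial and immune nuclei; black bars are medians, the dashed line is the median of all shared regions and dotted lines mark 2-fold. The median of Runx3 is 0.82 over all nuclei, 0.01 in epithelial and 0.06 in immune nuclei, and no Runx1t1 region reached 100 counts in immune nuclei.

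Runx2 is best known as the master factor of bone-forming cells. It had the most regions that differed in epithelial nuclei, 6 higher and 1 lower of 45, against 5.4% and 8.63% of all shared regions. All 7 were intronic. Runx2_r30 (chr17:44652826-44653719, 162 kb downstream of the distal TSS), whose centre is printed above, was at 15.3 CPM in DOX and 4.37 CPM in EtOH epithelial nuclei, a log2 ratio of 1.81 (1.64 to 1.98). The region was at 17.9 CPM in cluster 2 of DOX and at 6.68 CPM in the luminal progenitor cluster 1 of EtOH. Within the epithelial clusters with at least 50 nuclei of both libraries, the log2 ratio was 0.76 (-0.01 to 1.45) in cluster 1, 1.06 (0.30 to 1.79) in cluster 4, 1.17 (-1.44 to 3.34) in cluster 5 and 1.34 (0.27 to 2.46) in cluster 7. Immune nuclei had 11.1 CPM in DOX and 6.74 CPM in EtOH. The ratio was 1.22 (0.70 to 1.79) in immune cluster 3 and -0.87 (-1.65 to -0.03) in immune cluster 6.

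Another intronic region, Runx2_r8 (chr17:44547757-44548657), was singled out after its values were seen because it was the most open of the 7. It was at 36.9 CPM in DOX and 11.5 CPM in EtOH epithelial nuclei (log2 ratio 1.68, 1.58 to 1.79) and at 0.877 and 1.22 CPM in immune nuclei. The ratio was above 0 in each of the 4 epithelial clusters, with 2.04 in cluster 1, 0.88 in cluster 4, 0.67 in cluster 5 and 1.06 in cluster 7, and each interval left out 0. The region lay 267 kb downstream of the distal TSS, inside the gene body. The lower region, Runx2_r67 (chr17:44788821-44789828), was at 2.94 CPM in EtOH epithelial nuclei and lower in DOX, with a log2 ratio of -1.30 (-1.68 to -0.93). The most open Runx2 region over all nuclei, Runx2_r64, lay at a TSS of Supt3 and had an epithelial log2 ratio of 0.07 (-0.01 to 0.15).

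**Figure D4:**
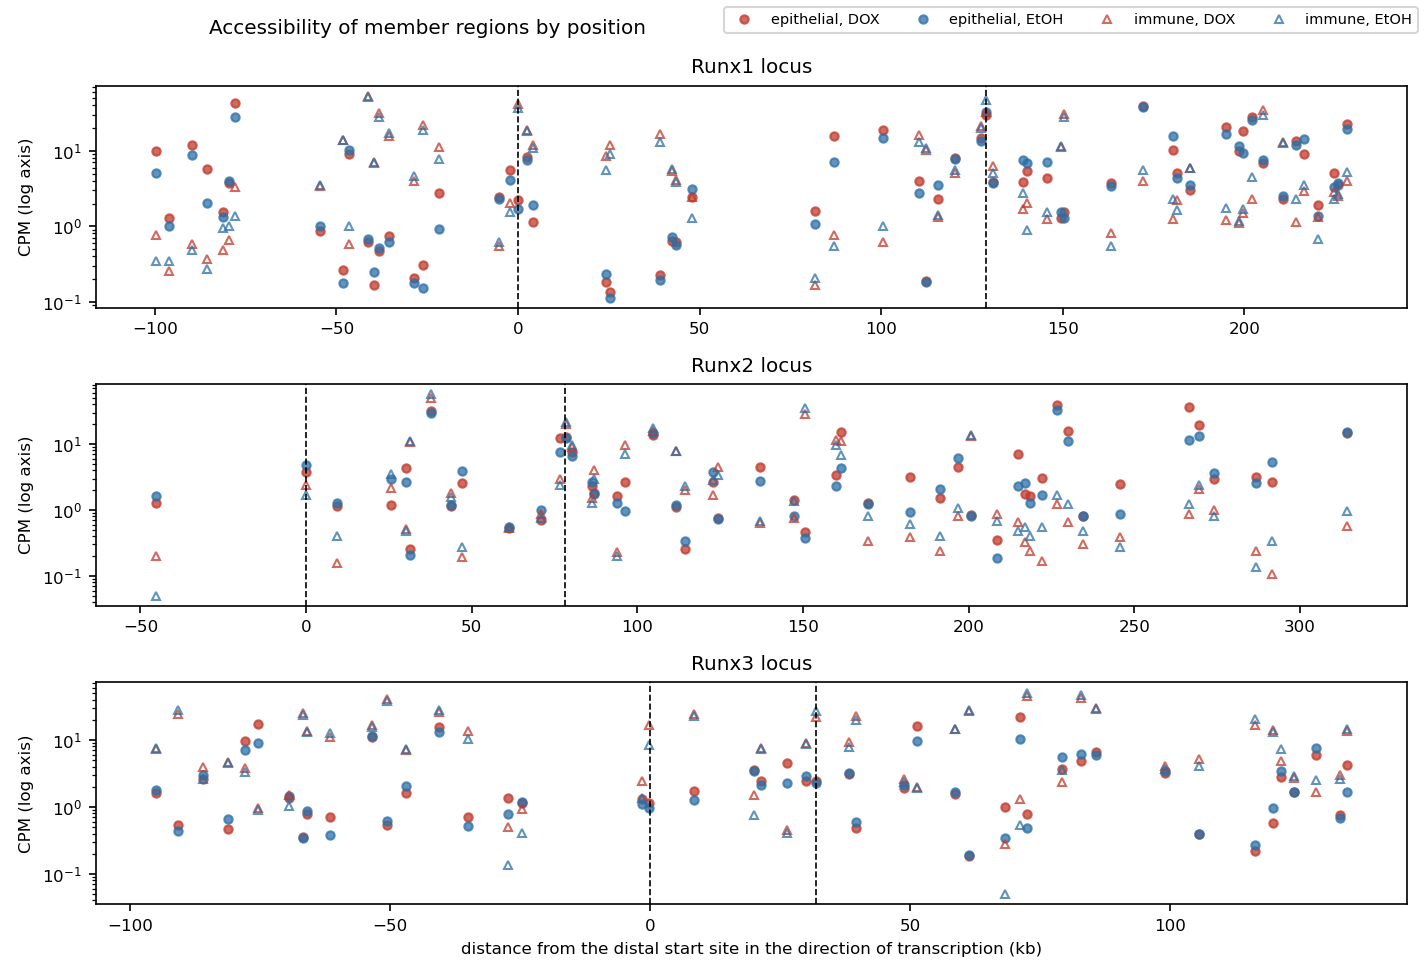
CPM (log axis; values under 0.05 are drawn at 0.05) of shared regions against distance in kb from the distal TSS for Runx1, Runx2 and Runx3. Filled circles are epithelial and open triangles immune nuclei, red is DOX and blue EtOH, and dashed lines mark the distal and proximal TSS. Runx2 regions 162 and 267 kb from the distal TSS lie higher in DOX than in EtOH epithelial nuclei.

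Of 52 Runx1 regions, 3 were at least 2-fold higher in DOX epithelial nuclei and 0 lower, against 5.4% and 8.63% of all shared regions. Runx1_r61 (chr16:92847561-92848502, at -21.9 kb from the distal TSS) had the highest ratio, with 2.76 CPM in DOX and 0.931 CPM in EtOH (log2 ratio 1.57, 1.19 to 1.96). It was more open in immune nuclei, at 11.2 and 7.82 CPM. Within clusters 1, 4, 5 and 7 its ratios were 0.43, 0.25, 0.96 and 0.81, each with an interval that included 0. Runx1_r76, at -77.9 kb, was at 43.0 CPM in DOX and 27.8 CPM in EtOH epithelial nuclei (log2 ratio 0.63, 0.55 to 0.71). This ratio fell to 0.25 when the epithelial clusters were given equal weight, as described below. In immune nuclei Runx1_r76 was at 3.28 CPM in DOX and 1.36 CPM in EtOH, from 273 and 20 counts (log2 ratio 1.27, 0.35 to 2.36). Runx1_r28, which overlapped an exon, had the lowest epithelial ratio, -0.95 (-1.17 to -0.74), with 3.91 and 7.56 CPM. Its ratio was -0.80 in cluster 4 and -0.10 in cluster 5.

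Against 5.4% of all shared regions, 3 of 44 regions at Runx3 were at least 2-fold higher in DOX epithelial nuclei. Among those with at least 200 counts the highest ratio was at Runx3_r64 (chr4:135254256-135255208, 134 kb from the distal TSS, downstream of the gene and the outermost region on that side). It had 4.21 CPM in DOX and 1.67 CPM in EtOH, a log2 ratio of 1.34 (1.05 to 1.63) in epithelial nuclei. In immune nuclei it stood at 13.7 and 14.5 CPM. The lowest epithelial ratio was -0.75 (-1.35 to -0.18) at Runx3_r57, and the lowest immune ratio with at least 200 counts was -0.60 (-1.04 to -0.15) at Runx3_r58. The most open region over all nuclei, Runx3_r19 at -40.6 kb, had ratios of 0.23 in epithelial and -0.07 in immune nuclei.

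Cbfb encodes the subunit shared by the 3 factors. Of its 24 regions, 1 was at least 2-fold higher in DOX epithelial nuclei and 0 lower, against 5.4% and 8.63% of all shared regions. Cbfb_r20 (chr8:105181860-105182780), in an intron, was at 3.50 CPM in DOX and 1.45 CPM in EtOH (log2 ratio 1.27, 0.96 to 1.59). The lowest epithelial ratio was -0.92 (-1.32 to -0.54) at Cbfb_r14, but within clusters 1, 4, 5 and 7 the ratios were 0.23, -0.48, 0.05 and -0.71, each with an interval that included 0. In immune nuclei the highest and lowest ratios with at least 200 counts were 0.22 (-0.16 to 0.62) at Cbfb_r34, which lay at a TSS of another gene, and -0.58 (-0.93 to -0.21) at Cbfb_r17.

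Runx1t1, which encodes a corepressor known from its fusion with RUNX1 in leukaemia, was open in epithelial nuclei and lay at 1.93 CPM in DOX and 2.45 CPM in EtOH immune nuclei when its 12 shared regions were summed. In epithelial nuclei the sums were 23.6 and 21.5 CPM. Runx1t1_r11 (chr4:13822637-13823564), in an intron, was at 6.79 CPM in DOX and 2.79 CPM in EtOH epithelial nuclei (log2 ratio 1.28, 1.06 to 1.51). In EtOH most of its epithelial counts came from the hormone-sensing clusters, with 226 in cluster 4 and 263 in cluster 5, while in DOX 436 came from cluster 2 (4.27 CPM) and 310 and 112 from clusters 4 and 5. By level it stood at 27.6 CPM in DOX and 5.29 CPM in EtOH in cluster 4 (log2 ratio 2.38, 2.02 to 2.75) and at 17.4 and 8.37 CPM in cluster 5 (1.05, 0.57 to 1.51). Runx1t1_r21 (chr4:13914610-13915899), downstream of the gene, had 0.678 CPM in DOX and 2.92 CPM in EtOH epithelial nuclei, a log2 ratio of -2.11 (-2.61 to -1.64). In cluster 4 its ratio was -2.14 (-4.06 to -0.72) and in cluster 5 -0.60 (-1.32 to 0.05).

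**Figure D5:**
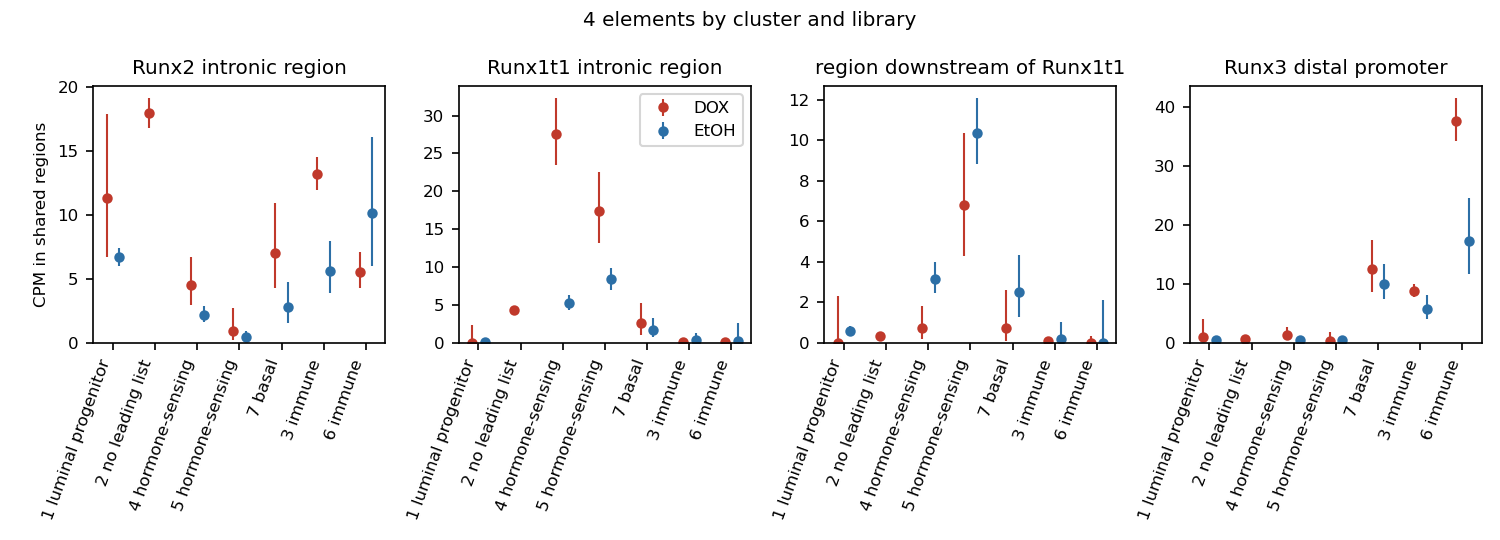
CPM of Runx2_r30, Runx1t1_r11, Runx1t1_r21 and the Runx3 distal promoter by cluster (x axis, number and leading marker list) in DOX (red) and EtOH (blue), with 95% Poisson intervals; cluster 2 is drawn for DOX alone because EtOH had 17 nuclei in it. Runx1t1_r11 reaches 27.6 CPM in cluster 4 of DOX, and the Runx3 distal promoter 37.6 CPM in cluster 6 of DOX.

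Since the libraries filled the epithelial clusters so differently, each epithelial cluster with at least 20 nuclei of both libraries (1, 4, 5 and 7) was also given equal weight, a setting chosen for this count after seeing the data. Then 5 regions were higher and 7 lower in DOX, where 3.14% and 5.21% of all shared regions were, and the median log2 ratio of the member regions was 0.005. Runx2_r30 had a ratio of 0.99, Runx1t1_r11 1.62, Runx2_r67 -0.84, Cbfb_r20 0.81, Runx1_r61 0.69, Runx3_r64 0.42, Runx1_r28 -0.45 and Cbfb_r14 -0.13, and the ratio at the Runx1 proximal promoter was -0.34. Runx1t1_r21, whose epithelial ratio of -2.11 was the lowest of the member regions before, then had -1.002. Runx3_r19, Runx2_r64, Cbfb_r16 and Cbfb_r34, with epithelial ratios between -0.05 and 0.23 before, then had ratios of the opposite sign (-0.09, -0.03, 0.06 and -0.41). Of the 14 regions called higher, 12 had a ratio above 0 in cluster 1, 14 in cluster 4, 7 in cluster 5 and 10 in cluster 7. The interval lay above 0 for 2, 9, 2 and 4 of them in this order. These regions had been called on the same nuclei, and such counts were not made over all shared regions. Cluster 2 has almost no EtOH nuclei, so there the library and the cluster cannot be told apart.

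Genes that work with RUNX proteins were taken from a list of 26 co-regulators, among them the Groucho corepressors Tle1 to Tle4, the acetyltransferase genes Ep300 and Crebbp and the relatives Cbfa2t2 and Cbfa2t3 of Runx1t1. All 26 had a promoter region with at least 200 counts, and 0 passed a 1.5-fold ratio in epithelial or in immune nuclei. Over all protein-coding genes 2.47% were higher and 2.48% lower in epithelial nuclei, and 1.6% and 1% in immune nuclei. The median log2 ratio of the list was 0.04 in epithelial and -0.02 in immune nuclei, against 0.01 and -0.03 over all genes. The highest ratios in epithelial nuclei were 0.32 (0.26 to 0.38) at Tle3 and 0.31 (0.24 to 0.38) at Wwtr1, which encodes the coactivator TAZ.

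Over all protein-coding genes, 2.47% were at least 1.5-fold higher and 2.48% lower in DOX epithelial nuclei. Of 18 genes known as RUNX targets, 14 reached 200 promoter counts in epithelial nuclei, of which 0 were higher and 4 lower in DOX. The lower promoters were those of Mmp13, a collagenase gene, with 1.13 CPM in DOX and 2.68 CPM in EtOH (log2 ratio -1.25), the bone matrix genes Ibsp (-0.93) and Bglap (-0.72), and the leukocyte integrin gene Itgal (-0.59). All 4 stood under 8 CPM in both libraries, and their ratios within clusters were not computed. In immune nuclei 13 target genes reached 200 counts. Against 1.6% and 1% of all protein-coding genes, 1 was higher and 0 lower. It was Mpo, which encodes a myeloid peroxidase, with 2.28 CPM in DOX and 0.816 CPM in EtOH (log2 ratio 1.48, 0.31 to 2.96, with 12 counts in EtOH). Esr1, the oestrogen receptor gene, had an epithelial ratio of -0.23 (-0.32 to -0.14) and Elf5, a luminal progenitor factor gene, 0.12 (0.02 to 0.21).

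The promoters most alike to those of the members were sought by Pearson correlation of log2(CPM + 1) over 13 groups of nuclei, each 1 cluster of 1 library, among 16341 genes. The groups share libraries and depth, so the values are a description. For the Runx1 distal promoter they were Neurl3, Rasgrf2 and C3ar1, for the Runx3 distal promoter Spn, Ggt5 and Gpr183, and for the Runx3 proximal promoter Fcrl1, Ust and Tnni2, with r between 0.95 and 0.99. For Cbfb they were Ddx17, Rassf1 and Atm (r = 0.99).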

How the data were processed

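Per the file headers, the authors' matrices hold counts of transposition events per peak and barcode from Cell Ranger ATAC 2.0.0, which called nuclei and peaks in each library alone; the study's methods name another version. The deposited counts had not been normalized, and the deposited peak lists and barcode lists hold coordinates and names. The submitters' processing notes give mm10. The members and lists were chosen with earlier results of these data known. Groups followed the labels, although a legend of the study names wild-type mice for this assay; under that legend doxycycline would be the sole difference.

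Peaks were merged where they overlapped by 1 bp. Counts were summed over nuclei and scaled to CPM over shared regions. Of nonzero counts 13.8% and 14.3% were odd, so most came in pairs, and intervals used counts divided by 2. These were exact conditional binomial intervals for ratios, Poisson for CPM and Clopper-Pearson for shares. Calls needed 2-fold and 100 counts (lists, 1.5-fold and 200). Promoter values added up the shared regions at most 1 kb from joined TSSs (2 kb apart or less). Clusters came from TF-IDF, components 2 to 30, 15 neighbours and Leiden at resolution 0.5, without regions of the 5 loci (Python 3.11.15, scikit-learn 1.9.0, leidenalg 0.10.2). No doublet caller was run, and the 5% deepest nuclei were left out as an alternative. Marker lists named classes where at least 3 markers were detected. Named regions were, per locus, the most open one and those with the highest and lowest ratio in each class with at least 200 counts. Ratios, intervals and calls were run on simulated Poisson counts with known ratios. These counts had no variation between libraries, so the run checked the calculation only. The value of 1 marker gene is not reported here. Regions with a peak of 1 library alone entered no ratio.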

Additional observations from a re-analysis of the deposited data

Results flagged for a closer look

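Runx1_r10, in an intron of Runx1, had a log2 ratio of DOX over EtOH of 0.17 in epithelial and -0.99 in immune nuclei, so the immune ratio was lower by -1.16 on the log2 scale; the opposite signs, with both counting intervals away from 0, drew attention to it. The immune ratio was -1.11 in cluster 3 and 0.12 (-1.79 to 2.83) in cluster 6, and -0.18 over immune nuclei when the libraries were clustered separately. Runx2_r30 had a ratio of 1.22 in immune cluster 3 and -0.87 in immune cluster 6, a difference of -2.10. Runx1_r79, upstream of Runx1, had 1.56 in cluster 1 and -0.86 in cluster 7, a difference of -2.42. None of these differences was tested between the groups of nuclei, because each group has 1 library.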

How the results depend on the processing

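No paired analysis was possible because DOX and EtOH have 1 library apiece. Over the alternatives, the count of regions 2-fold apart ran from 53 to 67 over all nuclei (64 as reported), from 12 to 22 in epithelial nuclei (17) and from 1 to 6 in immune nuclei (5). With at least 200 counts it was 1 in immune nuclei, since fewer regions were tested. The median log2 ratio ran from 0.005 to 0.107 in epithelial and from -0.027 to 0.035 in immune nuclei. The largest epithelial promoter ratio, 0.40 at Runx1 distal, became -0.32 at Runx2 distal when the libraries were clustered separately. Under another alternative it was 0.57 at Runx1t1 TSS cluster 4, which had 0.18 in the main setting. The cause was not tested. No 2-fold ratio of a named region or promoter changed sign. Of all alternative values of named regions and promoters, 40 moved by more than counting error and 509 did not. Among the 2-fold epithelial ratios that moved, Runx3_r64 fell from 1.34 to 0.42, Runx1_r61 from 1.57 to 0.69 and Runx2_r30 from 1.81 to 0.99. Runx1t1_r21 shrank from -2.11 to -1.002, while Runx1t1_r11 rose from 1.28 to 1.62. Immune values rest on 287 EtOH nuclei, which limits what low regions can show.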

Other observations

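Peaks found in 1 library alone could not be compared, since the other library has no deposited count there. The most open of the 51 regions with a peak of DOX alone was Runx1_r7, at a TSS of another gene, with 6.32 CPM over all nuclei, 2.85 CPM in epithelial and 11.7 CPM in immune nuclei of DOX. The next was Runx3_r34, at the Runx3 proximal promoter, with 5.61 CPM over all, 3.00 CPM in epithelial and 9.66 CPM in immune nuclei. The most open of the 44 regions with a peak of EtOH alone was Runx1_r14, in an intron of Runx1, with 3.59 CPM over all, 3.79 CPM in epithelial and 0.953 CPM in immune nuclei. By locus, Runx1 had 15 regions of DOX alone and 9 of EtOH alone, Runx2 17 and 16, Runx3 14 and 4, Cbfb 4 and 7 and Runx1t1 1 and 8, where 17.0% and 19.4% of all merged regions were of DOX and EtOH alone.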
